A study of Mus musculus with 25 samples.

Results

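The 10 genes described here are the coactivators Yap1 (YAP) and Wwtr1 (TAZ), the DNA-binding factors Tead1, Tead2, Tead3 and Tead4, the kinases Lats1 and Lats2, and the matricellular targets Ccn1 (Cyr61) and Ccn2 (Ctgf). They were taken by gene symbol from 56956 genes of the sciatic nerve count table. The list of 10 was chosen with earlier results of these data known. All 10 were among the 13993 genes that passed the filter on low counts (a log2 counts-per-million value, CPM, over 1 in 7 or more of the 25 libraries).

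The libraries came from 5 groups of mice, each with 1 library at each of 5 ages (3, 5, 7, 9 or 12 weeks). A library was made from the pooled sciatic nerves of 4 to 5 males and females. C3 mice (B6.Cg-Tg(PMP22)C3Fbas/J) carry 5 additional copies of human PMP22 on C57BL/6J, and WT-C3 are C57BL/6J mice. C22 mice (Tg(PMP22)C22Clh) carry 10 additional copies on FVB/NRJ, and WT-C22 are FVB/NRJ mice. The C3 line arose as a partial revertant of C22. C3-cJunKO (C3-PMP22 c-JunP0Cre) are C3 mice in which c-Jun is removed by a Cre driven by the P0 promoter, which is active in Schwann cells, so that other cells of the nerve keep c-Jun. The mice were untreated, the C3 and C22 lines were bred as heterozygotes, and all libraries carried the same batch label. The study's methods do not describe the breeding or background strain of C3-cJunKO, and its copy number is not given. Both transgenic lines model Charcot-Marie-Tooth disease type 1A (CMT1A), a demyelinating neuropathy caused by an extra copy of PMP22. Mouse strain and copy number change together between the C3 and C22 pairs and cannot be told apart.

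In the Hippo pathway, the kinases MST1 and MST2 (Stk4 and Stk3) activate LATS1 and LATS2, which phosphorylate YAP and TAZ and keep them in the cytoplasm. Unphosphorylated YAP and TAZ enter the nucleus, bind TEAD factors and switch on genes such as Ccn1, Ccn2 and Lats2 itself. In Schwann cells YAP and TAZ are known to be required, together with TEAD1, for radial sorting and for the expression of myelin genes including Pmp22. Transcript levels do not measure the phosphorylation or location of YAP and TAZ.

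On the GRCm39 genome, Yap1 lies on the minus strand at chr9:7932000-8004661 and Wwtr1 on the minus strand at chr3:57363067-57483331. The TEAD genes lie at chr7:112278522-112506014 (Tead1, plus strand), chr7:44865172-44883071 (Tead2, plus), chr17:28550645-28569791 (Tead3, minus) and chr6:128201251-128277786 (Tead4, minus). Lats1 lies at chr10:7556736-7592226 (plus), Lats2 at chr14:57926960-57995845 (minus), Ccn1 at chr3:145352720-145355738 (minus) and Ccn2 at chr10:24471333-24474900 (plus). The TEAD binding letters CATTCC were searched on both strands (GGAATG on the other) in the window from 250 bases before to 50 bases after the canonical transcript start, which held them in 14.0% of 21757 protein-coding promoters. Among the promoters reported here, Tead1 held 3 matches and Yap1, Wwtr1, Tead3 and Ccn1 held 1 each, while Tead2, Tead4, Lats1 and Lats2 held none. The AP-1 letters TGANTCA, bound by c-Jun with its partners, were in none of these windows and in 7.15% of all promoters. The matches are letters in a window, not measured binding. The 250 bases before the start are shown for the target Ccn1, and for Tead1 and Tead4, the TEAD genes with the largest changes, 5′ to 3′ on the strand of the gene with the TEAD letters in capitals.
Ccn1, chr3:145355739-145355988: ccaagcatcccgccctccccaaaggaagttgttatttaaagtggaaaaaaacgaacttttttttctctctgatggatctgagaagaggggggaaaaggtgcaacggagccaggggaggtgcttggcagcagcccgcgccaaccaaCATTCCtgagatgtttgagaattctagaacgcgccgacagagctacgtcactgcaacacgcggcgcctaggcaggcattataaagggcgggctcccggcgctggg
Tead1, chr7:112278272-112278521: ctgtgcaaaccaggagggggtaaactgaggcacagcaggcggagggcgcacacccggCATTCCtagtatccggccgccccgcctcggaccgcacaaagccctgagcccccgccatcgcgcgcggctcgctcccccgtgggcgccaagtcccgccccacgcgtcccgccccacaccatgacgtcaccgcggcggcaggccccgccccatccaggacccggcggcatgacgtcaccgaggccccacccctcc
Tead4, chr6:128277777-128278026: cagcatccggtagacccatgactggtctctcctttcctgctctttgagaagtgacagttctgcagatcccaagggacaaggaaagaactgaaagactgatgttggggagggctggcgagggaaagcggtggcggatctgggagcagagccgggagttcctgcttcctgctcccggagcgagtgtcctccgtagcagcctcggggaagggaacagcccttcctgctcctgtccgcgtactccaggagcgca
In the Ccn1 promoter the single match began at position -105 from the start, as CATTCC. Tead1 held 1 match in the bases shown, at -193, and 2 just after the start, at 29 and 41. The Tead4 window held none.

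The libraries held 2140142 to 49072746 counts on genes. The shallowest was the C3 library of 9 weeks, in which the members had 30 (Tead2) to 507 (Tead1) counts, and the next shallowest held 9001002. Jun, which encodes c-Jun, was at 26.4 to 31.8 CPM (scaled by TMM) in C3-cJunKO, 94.1 to 125 in C3 and 51.5 to 72.6 in WT-C3. The human genes of the transgene summed to 10165 to 14015 CPM in C3, 7911 to 16295 in C3-cJunKO and 9815 to 13975 in C22. In the controls they summed to at most 6.43 CPM. These values are as the labels say for the loss of c-Jun and the presence of the transgene. The ranges of C3 and C22 overlap and do not show their difference in copy number. Prx, which encodes the Schwann cell myelin protein periaxin, was at 3816 to 5070 CPM in C22, 5745 to 8409 in WT-C22, 5716 to 9314 in C3, 4968 to 8147 in C3-cJunKO and 6280 to 8271 in WT-C3. Prx does not stand for the other myelin genes. Of 9 myelinating Schwann cell markers, 2 were called higher and 2 lower in C3, where 12.5% and 11.4% of all genes were. In C22, 2 of the 9 were called higher and 4 lower, where 21.9% and 20.5% of all genes were. Skeletal muscle genes (Ckm, Acta1 and 3 others) summed to 5.05 to 8423 CPM with no order by group, and their part in the results was not tested. Exons of some members overlap other genes, and reads in the shared part can be set aside as ambiguous or split: Lats2 shares 2955 bases with the same-strand gene Gm49361, which had 0 counts in all libraries together against 35399 for Lats2, while antisense genes overlap Ccn2 (Gm15270, 286 counts against 19134), Ccn1 (Gm17501, 2276 against 24244), Tead2 (Cd37, 4416 against 7650) and Lats1 (Pcmt1, 51751 against 34802). The strand setting of the counting is not given in the sources used here.

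Per kilobase of canonical transcript, the coactivators were the most abundant of the 10 genes. Yap1 averaged 35.8 and Wwtr1 34.4 CPM per kb over the 25 libraries, followed by Tead1 at 26.5, Ccn1 at 21.3 and Tead3 at 20.3. Ccn2 averaged 12.0, Lats2 11.3, Lats1 7.99, Tead2 6.17 and Tead4 2.76 CPM per kb. Ccn2 had the widest range, from 4.61 to 41.1 CPM per kb, while Lats2 ranged from 9.11 to 14.3 and Lats1 from 6.35 to 9.84. With the length of all annotated exons in place of the canonical transcript the order was different, with Ccn1 at 21.3 and Tead1 at 19.4 above Yap1 at 16.0 and Wwtr1 at 13.6 CPM per kb.

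**Figure D1:**
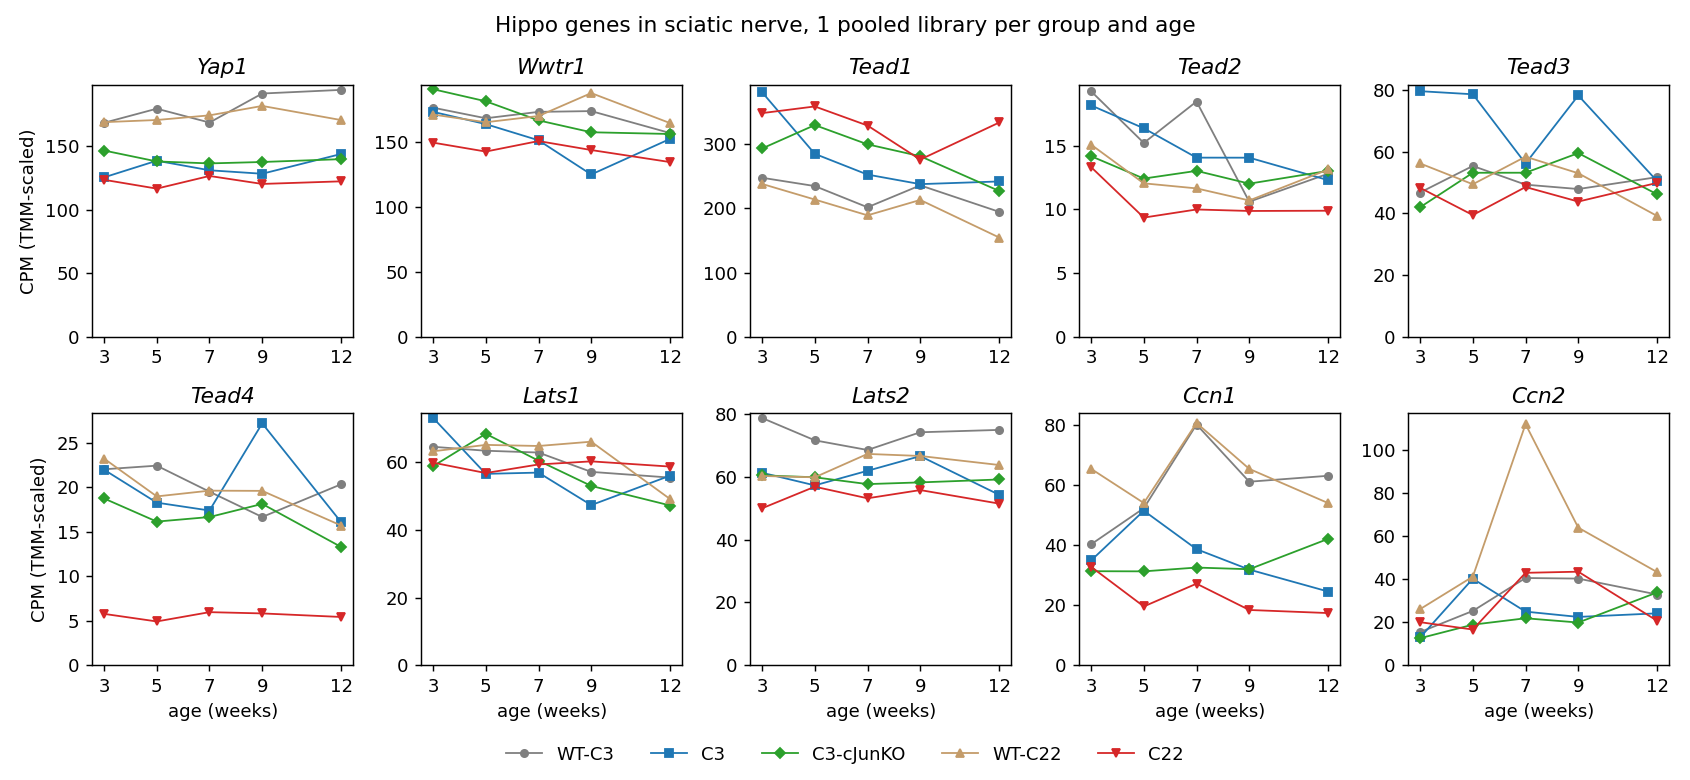
Level of each gene (CPM, TMM-scaled, y axis from 0) at each age in weeks, with 1 point per pooled library and 1 line per group. Yap1 and Lats2 lie lower in C3 than in WT-C3 at every age, Tead4 lies at 4.92 to 5.97 CPM in C22 and at 13.3 CPM or more in every other library, and Ccn2 peaks at 112 CPM in the WT-C22 library of 7 weeks.

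The first comparison asked what the additional PMP22 copies change in each model. In C3 nerves Yap1, Lats2 and Ccn1 were lower than in WT-C3 and Tead3 was higher (4 of 10 genes called at an adjusted p under 0.05, 3 lower and 1 higher), where 23.9% of all tested genes were called, 11.4% lower and 12.5% higher. In C22 nerves Yap1, Wwtr1, Tead4, Lats2 and Ccn1 were lower than in WT-C22 and Tead1 was higher (6 of 10, 5 lower and 1 higher), where 42.4% of all tested genes were called, 20.5% lower and 21.9% higher. With library size as the only scaling, 71.4% of the called genes were higher in C3 and 76% in C22, against 52.1% and 51.7% with TMM. Yap1, Lats2 and Ccn1 were lower in both models. The median log2 fold change of the 10 genes was -0.10 in C3 and -0.26 in C22, beside 0.00 for all genes in each. All adjusted p-values given are from edgeR (quasi-likelihood), adjusted by the Benjamini-Hochberg method over the 13993 genes, with the 5 ages of a group as its replicates, so that they measure the spread between pools of different age. In these whole nerves, fewer cells of a type and less RNA per cell cannot be told apart.

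**Figure D2:**
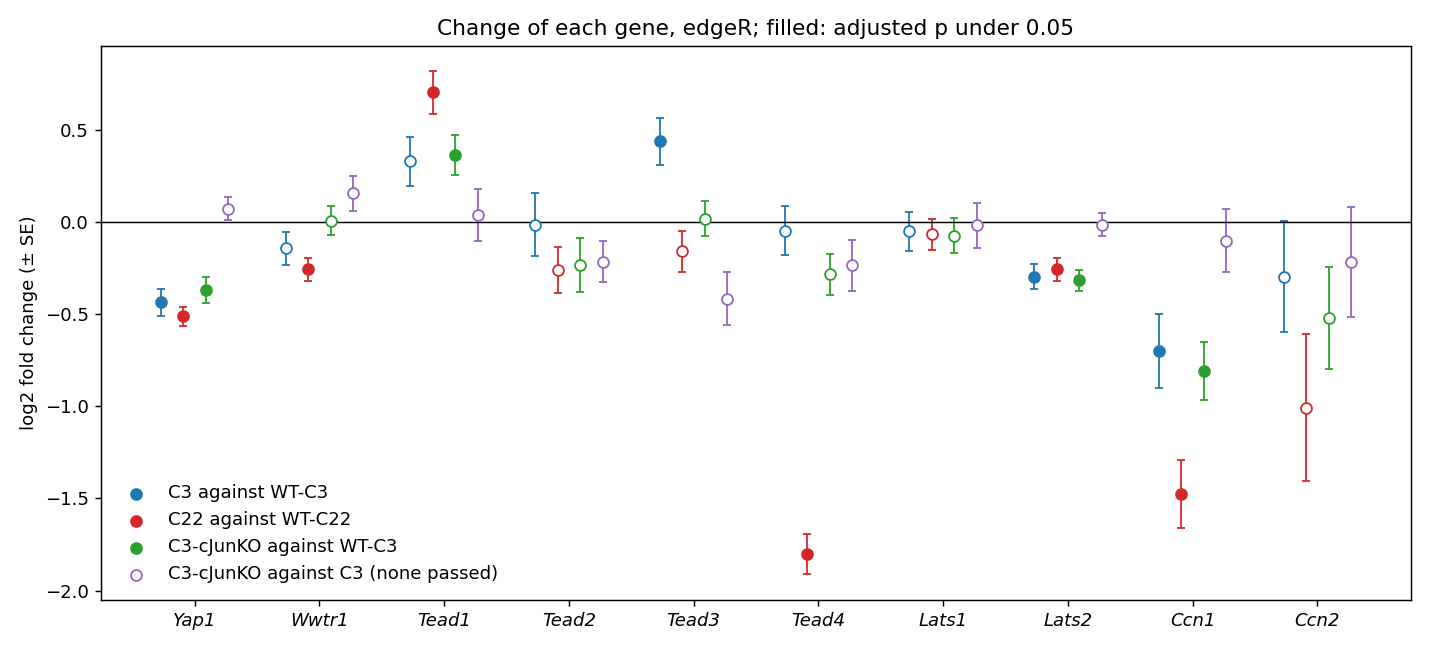
Log2 fold change of each gene with its standard error in 4 comparisons of 5 against 5 libraries, with filled points for an adjusted p under 0.05. Yap1, Lats2 and Ccn1 lie below 0 with filled points in C3, C22 and C3-cJunKO against their controls, Tead4 has a filled point in C22 alone, and no point of C3-cJunKO against C3 is filled.

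Yap1, the coactivator, was at 169, 180, 169, 192 and 195 CPM in WT-C3 and at 126, 139, 131, 128 and 144 CPM in C3, in order of age from 3 to 12 weeks. In WT-C22 it was at 169, 171, 174, 182 and 171 CPM and in C22 at 124, 117, 127, 120 and 122 CPM. Every transgenic library lay below every control library of its pair. Yap1 fell by 0.44 ± 0.07 (SE) on the log2 scale in C3 (1.35-fold lower, adjusted p = 0.00191) and by 0.51 ± 0.05 in C22 (1.43-fold lower, adjusted p = 1.88e-05). The C22 change minus the C3 change was -0.10 ± 0.08 (adjusted p = 0.517).

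Wwtr1, which encodes the paralog TAZ, was at 171, 165, 170, 187 and 164 CPM in WT-C22 and at 149, 142, 150, 143 and 134 CPM in C22, with no overlap. It fell by 0.26 ± 0.06 on the log2 scale in C22 (1.20-fold lower, adjusted p = 0.0052). With library size as the only scaling, which put the median of all genes at 0.17, the difference was -0.09 (adjusted p = 0.288), and for Lats2 it was likewise -0.09 (adjusted p = 0.321). In C3 Wwtr1 was at 125 to 173 CPM against 156 to 176 CPM in WT-C3, lower at all 5 ages but overlapping, with a difference of -0.14 ± 0.09 (adjusted p = 0.265). The lowest C3 value was that of the shallow library of 9 weeks. Per kilobase, Yap1 exceeded Wwtr1 1.20-fold ± 0.129 (SD, n = 5) in WT-C3 and 1.14-fold ± 0.0345 in WT-C22, whereas the ratio was 0.993 ± 0.127 in C3 and 0.953 ± 0.0413 in C22. The ratio did not overlap between C22 (0.921 to 1.02) and WT-C22 (1.09 to 1.17), and it did between C3 (0.816 to 1.16) and WT-C3 (1.08 to 1.40). Which of the 2 genes was higher depended on the length used. With the length of all annotated exons, Yap1 averaged 14.25 and Wwtr1 12.9 CPM per kb in C3. In C22 they averaged 13.0 and 12.2, in WT-C3 19.3 and 14.3, and in WT-C22 18.5 and 14.5.

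Tead4 showed the largest change of the 10 genes, in C22. It was at 23.2, 19.0, 19.6, 19.6 and 15.7 CPM in WT-C22 and at 5.77, 4.92, 5.97, 5.82 and 5.43 CPM in C22 at 3 to 12 weeks. It fell by 1.80 ± 0.11 on the log2 scale (3.49-fold lower, adjusted p = 3.4e-07), and the C22 values varied little with age. In C3 it was at 16.1 to 27.2 CPM against 16.7 to 22.4 CPM in WT-C3, a difference of -0.05 ± 0.13 (adjusted p = 0.833), and the highest C3 value, at 9 weeks, rested on 58 counts. The difference between the models, taken as the C22 change minus the C3 change, was -1.78 ± 0.18 (adjusted p = 1.32e-06). The 5 libraries of WT-C22 and WT-C3 differed by -0.06 ± 0.11 (adjusted p = 0.767) and overlapped.

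Tead1, the TEAD factor linked to Schwann cell myelination, was the only member called higher in C22. It was at 238, 214, 189, 213 and 154 CPM in WT-C22 and at 348, 359, 329, 276 and 334 CPM in C22, without overlap, and rose by 0.70 ± 0.12 on the log2 scale (1.63-fold, adjusted p = 0.000563). In C3 it was at 381, 285, 253, 238 and 242 CPM against 248, 235, 202, 236 and 194 CPM in WT-C3. It was higher at all 5 ages, by 0.33 ± 0.13, which did not pass the test (adjusted p = 0.0943), and at 9 weeks the libraries differed by 0.01 on the log2 scale. Between the models the changes differed by 0.35 ± 0.18 (adjusted p = 0.248).

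Tead3 was called higher in C3 but not in C22. In C3 it was at 79.7, 78.7, 56.2, 78.3 and 50.4 CPM against 46.8, 55.4, 49.3, 47.9 and 51.8 CPM in WT-C3, higher at 4 of 5 ages, and rose by 0.44 ± 0.13 on the log2 scale (1.35-fold, adjusted p = 0.0274). The 12-week libraries of both groups were alike, and the adjusted p was 0.0557 to 0.0753 when the WT-C3 library of 3, 7 or 9 weeks or the C3 library of 3 or 5 weeks was left out. In C22 Tead3 was at 39.5 to 49.9 CPM against 39.1 to 58.4 CPM, a difference of -0.16 ± 0.11 (adjusted p = 0.262). Taken as C22 minus C3, the changes differed by -0.62 ± 0.18 (adjusted p = 0.0269), and leaving out any of 6 single libraries (WT-C3, C3 or WT-C22 of 3 weeks, C3 or C22 of 5 weeks, WT-C22 of 7 weeks) gave 0.0549 to 0.0625. Among the members, 2 of 10 (Tead3 and Tead4) passed this test of the difference, both lower in C22, where 12.1% of all genes passed, 7.31% lower and 4.75% higher.

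Tead2, a TEAD factor also expressed in early embryos, was at 9.36 to 13.3 CPM in C22 and 10.7 to 15.1 CPM in WT-C22 (difference -0.26 ± 0.12, adjusted p = 0.113), lower at all 5 ages. In C3 it was at 12.3 to 18.2 CPM against 10.6 to 19.3 CPM (-0.02 ± 0.17, adjusted p = 0.962), so neither difference passed the test.

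The make-up of the TEAD transcripts was different in C22. Per kilobase, Tead1 made 58.5% ± 3.24 (SD, n = 5) of the 4 TEAD transcripts in C22 and 41.3% ± 2.42 in WT-C22, while Tead4 made 1.68% ± 0.191 and 6.70% ± 0.172. In WT-C3, C3 and C3-cJunKO the share of Tead1 was 43.0% ± 3.33, 43.5% ± 4.40 and 50.4% ± 3.18, and that of Tead4 6.54% ± 0.537, 5.31% ± 1.05 and 4.92% ± 0.524. The summed TEAD level was 56.4 ± 3.92 CPM per kb in C22 and 48.8 ± 6.14 in WT-C22, with overlapping ranges. With the length of all annotated exons in place of the canonical transcript, the Tead4 share was 2.73% ± 0.345 in C22 and 11.4% ± 0.324 in WT-C22.

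**Figure D3:**
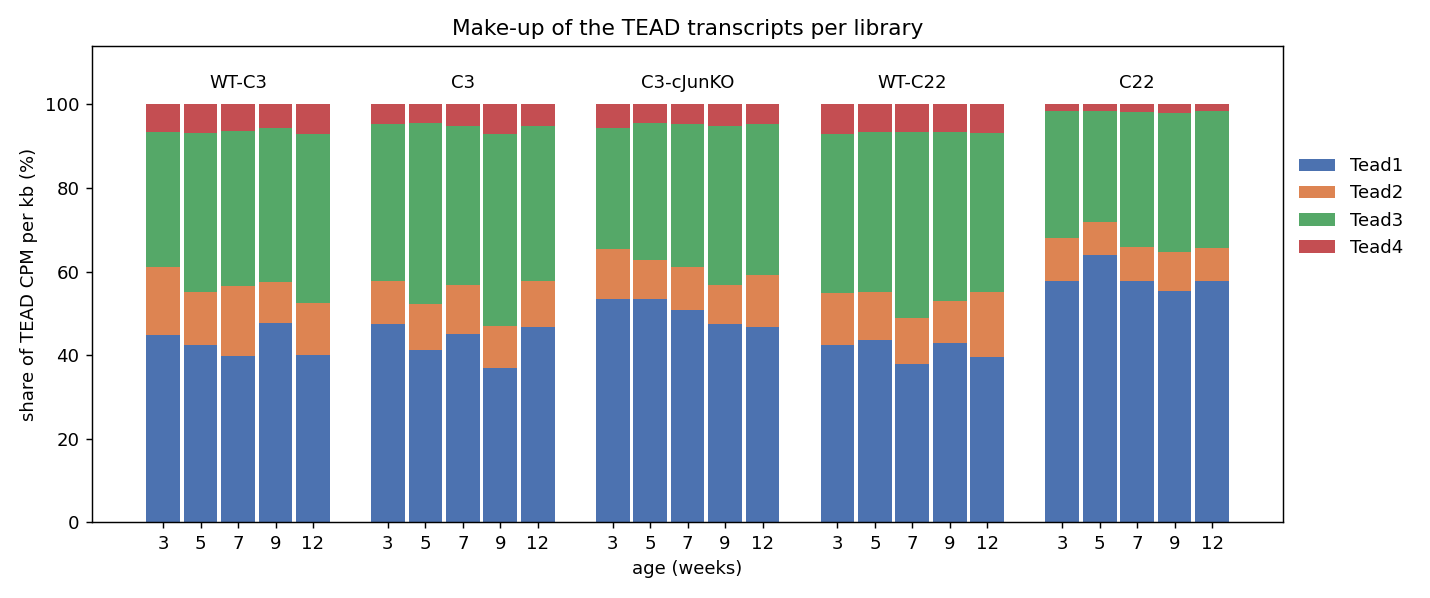
Share of each TEAD gene in the summed TEAD level (CPM per kb of canonical transcript, %) in each of the 25 libraries, ordered by group and age in weeks. Tead1 takes 55.4% to 64.0% in the 5 C22 libraries and 37.98% to 43.7% in the 5 WT-C22 libraries, and Tead4 at most 1.97% in C22.

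Lats2, a kinase that is also a YAP target, was at 78.7, 71.6, 68.5, 74.2 and 74.9 CPM in WT-C3 and at 61.3, 57.2, 61.9, 66.6 and 54.2 CPM in C3. In WT-C22 it was at 60.2, 59.8, 67.3, 66.6 and 63.7 CPM and in C22 at 49.95, 56.8, 53.1, 55.8 and 51.4 CPM. Neither pair overlapped. Lats2 fell by 0.30 ± 0.07 on the log2 scale in C3 (1.23-fold lower, adjusted p = 0.00927) and by 0.26 ± 0.06 in C22 (1.20-fold lower, adjusted p = 0.00621). Its paralog Lats1 was at 47.3 to 73.1 CPM in C3 and 56.8 to 60.3 CPM in C22, with differences of -0.05 ± 0.11 (adjusted p = 0.756) and -0.07 ± 0.08 (adjusted p = 0.525) that did not pass the test. In each of the 5 groups Lats1 averaged 57.6 to 61.7 CPM.

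Ccn1, which encodes a secreted matricellular protein and is, like Ccn2, a target of YAP, was at 40.3, 52.3, 80.2, 61.2 and 63.1 CPM in WT-C3 and at 34.9, 51.5, 38.7, 31.9 and 24.5 CPM in C3. In WT-C22 it was at 65.4, 54.1, 80.7, 65.4 and 54.0 CPM and in C22 at 32.8, 19.6, 27.2, 18.4 and 17.4 CPM. The C22 libraries all lay below the WT-C22 libraries, whereas the C3 and WT-C3 ranges overlapped and at 5 weeks were nearly equal. Ccn1 fell by 1.48 ± 0.19 on the log2 scale in C22 (2.78-fold lower, adjusted p = 8.59e-05) and by 0.70 ± 0.20 in C3 (1.63-fold lower, adjusted p = 0.0265). In C3 the adjusted p was 0.0545 to 0.0647 when the C3 library of 3 weeks or the WT-C3 library of 7, 9 or 12 weeks was left out. As C22 minus C3, the changes differed by -0.80 ± 0.29 (adjusted p = 0.0824).

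Ccn2, its relative, varied most between ages. It was at 26.1, 41.3, 112, 64.1 and 43.3 CPM in WT-C22 and at 20.1, 16.6, 43.0, 43.6 and 20.6 CPM in C22, lower at all 5 ages by 0.38 to 1.38 on the log2 scale. The difference of -1.01 ± 0.40 did not pass the test (adjusted p = 0.0607). It did in 1 fit of all 25 libraries (0.031) and with age as a block (-0.94 ± 0.16, adjusted p = 0.00209). It also did when WT-C22 of 3 weeks (0.027), C22 of 7 weeks (0.0461) or C22 of 9 weeks (0.0398) was left out. In WT-C3 it was at 15.4, 25.3, 40.6, 40.3 and 32.9 CPM and in C3 at 12.9, 40.3, 25.0, 22.5 and 24.2 CPM, lower at 4 of 5 ages, with a difference of -0.30 ± 0.30 (adjusted p = 0.503).

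The numbers of members whose 5 transgenic libraries did not overlap the 5 control libraries were 2 in C3 (Yap1, Lats2), where 17.5% of all genes did not overlap, and 6 in C22 (Yap1, Wwtr1, Tead1, Tead4, Lats2, Ccn1), where 30.6% did not.

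C3-cJunKO against C3 asked what the loss of c-Jun in Schwann cells changes in C3 nerves, c-Jun being an AP-1 factor that shares many enhancers with TEADs. No member was called by edgeR (0 of 10), where 0.55% of all genes were called, 0.222% higher and 0.329% lower. At an unadjusted p under 0.05 there was 1 of 10 (Tead3), beside 1096 of 13993 genes. No member had ranges without overlap, where 2.27% of all genes did. DESeq2 called no member either. Yap1 was at 147, 138, 137, 138 and 140 CPM in C3-cJunKO, a difference of 0.07 ± 0.06 from C3 (adjusted p = 0.871). Ccn1 was at 31.3, 31.3, 32.6, 32.0 and 42.1 CPM in C3-cJunKO, a difference of -0.10 ± 0.17 (adjusted p = 0.956). Lats2 (-0.02 ± 0.06), Tead1 (0.04 ± 0.14), Ccn2 (-0.22 ± 0.30), Tead4 (-0.24 ± 0.14), Tead2 (-0.22 ± 0.11), Lats1 (-0.02 ± 0.12) and Wwtr1 (0.15 ± 0.10) likewise did not pass. Tead3 was at 42.0, 53.2, 53.2, 59.6 and 46.2 CPM in C3-cJunKO, lower than in C3 at all 5 ages, with a difference of -0.42 ± 0.14 (adjusted p = 0.417). With age as a block, 273 instead of 77 genes were called and still none of the 10. In this pair of groups the libraries of 1 age, though from different pools, deviated alike at every age (correlation 0.123 to 0.615).

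Against WT-C3, the C3-cJunKO nerves had lower Yap1 (-0.37 ± 0.07, adjusted p = 0.0024), Lats2 (-0.32 ± 0.06, adjusted p = 0.00222) and Ccn1 (-0.81 ± 0.16, adjusted p = 0.0032), and higher Tead1 (0.36 ± 0.11, adjusted p = 0.0324). These 4 of 10 calls, 1 higher and 3 lower, compare with 21.5% of all genes, 10.3% higher and 11.3% lower (66.6% of calls higher with library size as the only scaling, 47.7% with TMM). Of the 10, 2 (Yap1 and Lats2) had ranges without overlap, where 16.3% of all genes did, and this comparison shares its WT-C3 libraries with that of C3. Tead1 was at 293, 330, 300, 281 and 227 CPM in C3-cJunKO, above WT-C3 at each age, and its call was lost (adjusted p 0.0621 to 0.0884) without WT-C3 of 7 or 12 weeks or C3-cJunKO of 5, 7 or 9 weeks. Tead3 did not pass the test (0.02 ± 0.10, adjusted p = 0.921). Wwtr1 (0.01 ± 0.08), Tead2 (-0.24 ± 0.15), Tead4 (-0.29 ± 0.11), Lats1 (-0.07 ± 0.10) and Ccn2 (-0.52 ± 0.28) did not pass the test.

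The control strains were compared as background. Between WT-C22 and WT-C3, 1 of 10 members was called, where 21.7% of all genes were, 9.99% higher and 11.7% lower. Lats2 was lower in WT-C22 (-0.21 ± 0.07, adjusted p = 0.0373), and without 8 of the 10 single libraries in turn (all but the 7-week library of each group) it missed the threshold. Its ranges did not overlap between the strains, where those of 17% of all genes did not. Ccn2 was higher in WT-C22 at all 5 ages, by 0.39 to 1.46 on the log2 scale, with a difference of 0.90 ± 0.37 (adjusted p = 0.104). Yap1 (-0.06 ± 0.07), Wwtr1 (0.02 ± 0.07), Tead1 (-0.14 ± 0.12), Tead2 (-0.28 ± 0.16), Tead3 (0.03 ± 0.10), Lats1 (0.02 ± 0.09) and Ccn1 (0.11 ± 0.17) did not pass.

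The order of the group means was not the same for all genes. For Yap1 the order was WT-C3, WT-C22, C3-cJunKO, C3 and C22, from 181 ± 12.3 to 122 ± 3.73 CPM (SD, n = 5), with a gap between the ranges of WT-C22 and C3-cJunKO. The means of the 2 controls, and those of C3-cJunKO and C3, lay within 1 SD of each other. For Ccn1 both controls (63.9 ± 11.0 in WT-C22, 59.4 ± 14.7 in WT-C3) lay above C3 (36.3 ± 9.95) and C3-cJunKO (33.9 ± 4.66), and C22 was lowest (23.1 ± 6.66), but only the neighbours WT-C3 and C3, and C3-cJunKO and C22, differed by more than 1 SD, and all neighbouring ranges overlapped. For Tead1 the order was C22, C3-cJunKO, C3, WT-C3 and WT-C22, from 329 ± 32.0 to 202 ± 31.6 CPM, with every neighbouring pair of ranges overlapping. For Tead4 the other 4 groups averaged 16.6 to 20.2 CPM and C22 5.58 ± 0.42. For Ccn2 WT-C22 (57.4 ± 33.5) led, but all neighbours overlapped.

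Other genes of the pathway were taken from lists based on general knowledge, which were chosen with earlier results of these data known. Of 13 upstream kinases and scaffolds, 6 were called in C22, where 42.4% of all genes were, 5 lower and 1 higher, with a median log2 fold change of -0.13. Stk3 (MST2) fell by 0.55 ± 0.08 on the log2 scale (adjusted p = 0.0002) and Stk4 (MST1) by 0.39 ± 0.07 (adjusted p = 0.00133). Mob1a, the LATS cofactor (-0.25 ± 0.07), the kinase Taok3 (-0.28 ± 0.06) and the scaffold Wwc1 (-0.96 ± 0.26) also fell, Wwc1 at 4 of 5 ages, and the kinase Map4k4 rose (0.57 ± 0.11, adjusted p = 0.00127). In C3, where 23.9% of all genes were called, 3 of 13 were: Stk3 fell by 0.42 ± 0.11 (adjusted p = 0.0164), and Map4k4 (0.43 ± 0.12, adjusted p = 0.0195) and Taok2 (0.26 ± 0.09, adjusted p = 0.048) rose. Nf2, the merlin scaffold, did not pass in either model (0.04 ± 0.06 in C22, -0.01 ± 0.07 in C3).

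Among 11 partners of YAP and TEAD, 9 passed the filter and 6 were called in C22 (42.4% of all genes), 5 lower and 1 higher, with a median of -0.48. The YAP-binding angiomotins Amot (-0.89 ± 0.10), Amotl1 (-0.48 ± 0.12) and Amotl2 (-0.50 ± 0.09) fell, as did Ajuba (-0.96 ± 0.08), a LIM protein that restrains LATS, and Vgll3 (-1.01 ± 0.09), a TEAD cofactor of the vestigial family. Limd1, another LIM protein of the Ajuba family, rose (0.26 ± 0.08). In C3, 2 of 9 were called (23.9% of all genes): Vgll3 fell by 0.59 ± 0.10 (adjusted p = 0.00214) and Limd1 rose by 0.39 ± 0.10 (adjusted p = 0.014). Relative to C3, the C22 change was lower for Amotl1, Vgll3, Vgll4 and Ajuba (4 of 9, adjusted p 0.000106 to 0.0475, where 7.31% of all genes were lower).

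Atypical cadherins and members of the STRIPAK phosphatase complex, which acts on MST kinases, changed in both directions in C22. Of all genes, 20.5% were called lower and 21.9% higher there. The cadherins Fat1 (-0.47 ± 0.08) and Fat4 (-0.40 ± 0.10) and the STRIPAK genes Strn3 (-0.50 ± 0.09) and Slmap (-0.24 ± 0.06) fell, and Strn4 (0.44 ± 0.07), Sike1 (0.35 ± 0.12) and Fjx1, the relative of Drosophila four-jointed (1.07 ± 0.24) rose. In C3, where 11.4% of all genes were called lower and 12.5% higher, Strn4 rose (0.46 ± 0.09) and the others named here were not called.

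Of 22 genes of a conserved YAP target signature, 20 passed the filter, Lats2, Ccn1 and Ccn2 among them. In C22, 4 were lower (Ccn1, Lats2, Amotl2 and Rbms3) and 3 higher (Fjx1, Tgfb2 and Asap1), where 20.5% of all genes were lower and 21.9% higher, with a median of -0.22. In C3, 2 were lower (Ccn1 and Lats2) and 3 higher (Myof, Dock5 and Arhgef17), where 11.4% and 12.5% of all genes were, with a median of -0.00. The signature genes did not all move with Ccn1: Tgfb2 rose by 0.81 ± 0.14 in C22 and Dock5 by 0.51 ± 0.09 in C3. In the rest of the CCN family, Ccn3 rose in C22 (1.20 ± 0.11, adjusted p = 8.03e-06) and in C3 (0.33 ± 0.07, adjusted p = 0.00493), and Ccn4 fell in C22 (-1.19 ± 0.26, adjusted p = 0.00329). Among Schwann cell genes linked to YAP and TAZ, endogenous mouse Pmp22 fell in both models, by 2.42 ± 0.23 in C22 and by 1.16 ± 0.16 in C3, and the laminin receptor subunit Itga6 fell in C22 (-0.30 ± 0.10), while Egr2, Itgb1 and Dag1 did not pass in either.

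**Figure D4:**
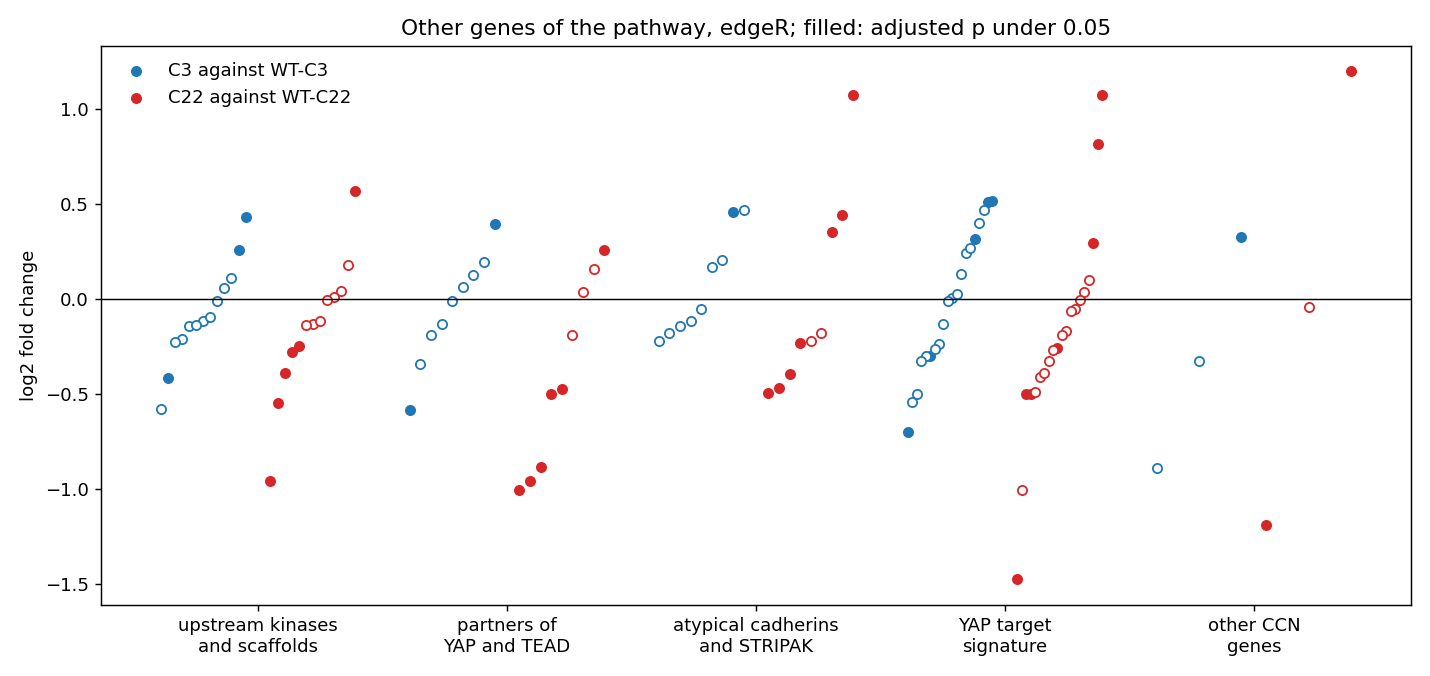
Log2 fold change of the pathway genes reported here in C3 against WT-C3 and in C22 against WT-C22, sorted within each list along the x axis, with filled points for an adjusted p under 0.05. Points of both signs are filled in each list in C22, from -1.48 for Ccn1 to 1.20 for Ccn3.

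Markers of Schwann cell states and of other cells moved beside these genes. Of 8 markers of repair Schwann cells, 5 passed the filter. In C3, 4 of these were higher (Shh, Ngfr, Runx2 and Sox2), and the list summed to 208 to 297 CPM against 67.5 to 92.3 in WT-C3. In C22, 3 were higher (Ngfr, Runx2 and Sox2) and 2 lower (Shh and Gap43), and the list summed to 106 to 178 CPM against 56.8 to 84.2 in WT-C22. Of 9 macrophage markers, 1 was higher (Cx3cr1) and 1 lower (Cd163) in C3, and 2 were higher (Aif1 and Cx3cr1) and 2 lower (Mrc1 and Cd163) in C22. All counts of markers stand beside 20.5% of all genes lower and 21.9% higher in C22, and 11.4% and 12.5% in C3. In C22, 3 of 3 perineurial markers (summed level 867 to 1114 CPM against 1275 to 1941 in WT-C22), 4 of 7 endothelial markers (486 to 794 against 680 to 970) and 3 of 6 pericyte and smooth muscle markers (541 to 1122 against 874 to 1659) were lower, and 5 of 5 proliferation genes were higher (25.4 to 65.5 against 6.66 to 16.5). In C3, 2 of 3 perineurial markers and 3 of 6 pericyte and smooth muscle markers were lower, 1 of those 6 was higher, none of 7 endothelial markers was called, and 5 of 5 proliferation genes were higher (26.3 to 75.1 CPM against 5.70 to 28.9). Fibroblast markers were called in 0 of 7 in C3 and 1 of 7 in C22, where the 1 called was lower. Fibroblasts, endothelial cells and smooth muscle cells are known to express Ccn1 and Ccn2 too. The part of all these cells in the results was not tested.

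The effect of age within each group was estimated by a natural cubic spline (3 degrees of freedom) in 1 fit of all 25 libraries and 15298 genes. No member was called for an effect of age in any group, where 0.693% (WT-C3), 2.27% (C3), 3.38% (C3-cJunKO), 2.86% (WT-C22) and 0.752% (C22) of all genes were. At an unadjusted p under 0.05 there were 1, 5, 3, 3 and 1 of the 10 members, beside 2167, 2977, 3486, 3061 and 2240 of the 15298 genes. With a linear slope, Tead1 declined in C3 by 0.07 ± 0.02 on the log2 scale per week (adjusted p = 0.049), where 5.96% of all genes passed. No member was called for a slope in the other groups, where 2.62% (WT-C3), 5.97% (C3-cJunKO), 7.77% (WT-C22) and 0.784% (C22) of all genes were. Without the C3 library of 3 weeks, which held 381 CPM, the slope was -0.03 and the adjusted p 0.668.

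The genes with the most similar pattern over the 25 libraries, by Pearson correlation of log2 CPM, were Paics (0.963), Sgce (0.951) and Bnip3l (0.950) for Yap1. For Tead4 they were Mast2 (0.972), Adcy1 (0.966) and D630003M21Rik (0.963), and for Tead1 Frem1 (0.961), Stox2 (0.958) and Asxl3 (0.949). For Ccn1 they were Znhit6 (0.918), Fbln5 (0.894) and Tlcd3a (0.889), and for Ccn2 Ifngr1 (0.884), Stk17b (0.875) and Pik3r1 (0.872). For Lats2 they were Ccpg1 (0.897), Rab11a (0.892) and Sri (0.891), and for Lats1 Sec24a (0.899), Epm2aip1 (0.845) and Ythdf3 (0.842). For Wwtr1 they were Gng12 (0.892), Arl5a (0.877) and Slmap (0.866), for Tead3 Il16 (0.849), Hectd4 (0.845) and Sorbs3 (0.830), and for Tead2 Tmem214 (0.829), Mobp (0.821) and Kcp (0.795). None of the 10 genes was among the 3 nearest of another. The libraries share strain, transgene and age within groups, and these values are a description of the 25 libraries.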

How the data were processed

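RNA-seq of whole sciatic nerve was analysed in 25 poly(A)-enriched, strand-marking libraries from pools of 4 to 5 mice. The authors trimmed reads with cutadapt 2.10 after FastQC 0.11.9, aligned them with STAR 2.7.5a to GRCm39 with the human PMP22 locus of GRCh38 added, removed duplicates by molecular identifiers with UMI-tools 1.1.1, and deposited raw gene counts from HTSeq 0.12.4, with no replicates merged. The 5 summary lines of the counter were left out: 8.12% to 12.1% of assigned and unassigned reads had no feature and 1.78% to 2.04% were ambiguous. Symbols, positions and transcript lengths came from GENCODE M39 (GRCm39), which matched 56323 of 56941 mouse genes. No symbol was paired with the 15 human genes, which were summed.

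Genes with log2 CPM above 1 (prior count 2) in at least 7 of 25 libraries were kept. Groups were compared with edgeR 4.0.16 (glmQLFit and glmQLFTest, R 4.3.3) on the counts of the libraries concerned, with TMM scaling, after the study's methods, with group as the only term and Benjamini-Hochberg adjustment over 13993 genes. The change in C22 minus that in C3 was a contrast over 20 libraries. Age was fitted with filterByExpr (15298 genes). Alternatives were other scalings, DESeq2 1.42.0, other filters, 1 fit of all libraries, age as a block and each library left out. Levels are TMM-scaled CPM, means ± SD over the 5 ages, and log2 fold changes have the standard error implied by the test. Steps were tested on simulated data.

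Libraries of 1 age were checked for pairing by correlating their deviations from the group means over genes. Only C3-cJunKO and C3 had every pair over 0.1 (0.123 to 0.615). In all comparisons the libraries of 1 age are different pools that share only the age.

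Depth was 2140142 to 49072746 counts on genes. A member's lowest count was 30, and no member was at 0. The 10 members are those listed for this gene group; all 10, the pathway and marker lists, and the rule to name list genes past the threshold in C3 or C22 were chosen with earlier results of these data known. Promoters were read from GRCm39 at the canonical transcript start. Some listed genes and 1 promoter sequence are not reported here.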

Additional observations from a re-analysis of the deposited data

Results flagged for a closer look

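In 50 groups of 5 libraries (10 genes in 5 groups), 4 held 1 library whose distance to the nearest of the others was more than 0.71 of the whole range, where chance gives about 1 in 20. Ccn1 in C3-cJunKO was at 42.1 CPM at 12 weeks and at 31.3 to 32.6 CPM at the other ages (0.883 of the range). Tead2 in C22 was at 13.3 CPM at 3 weeks and at most 9.99 CPM later (0.839 of the range). Lats1 in WT-C22 was at 49.1 CPM at 12 weeks and at 63.2 CPM or more before (0.833 of the range). Wwtr1 in WT-C22 was at 187 CPM at 9 weeks and at most 171 CPM at the other ages (0.713 of the range).

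The change in C22 differed from the change in C3 for 2 genes by the test of the difference itself. It was -1.78 on the log2 scale for Tead4, which was lower in C22 at 5 of 5 ages, and -0.62 for Tead3, which was higher in C3 at 4 of 5 ages.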

How the results depend on the processing

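Of 60 member results (10 genes in 6 comparisons), all 60 kept their direction and their side of the threshold with median-ratio size factors, with DESeq2 and with filterByExpr, 59 with all 25 libraries in 1 fit (all but Ccn2 in C22, called at 0.031) and 57 with no filter on low counts. With library size as the only scaling 47 of 60 did. That scaling moved the median log2 fold change of all genes to 0.17 in C22 and 0.08 in C3, and members near 0 changed sign: in C3 Tead2 was 0.060, Tead4 0.029 and Lats1 0.023, in C22 Tead3 0.010 and Lats1 0.10, in the difference of the models Yap1 0.017 and Lats1 0.079, and in C3-cJunKO against WT-C3 Lats1 0.0098. In the difference 63.1% of called genes were higher, against 39.4% with TMM. It gave 2 members higher in C3, 3 lower in C22 (without Wwtr1 and Lats2), 1 lower in the difference (without Tead3, adjusted p = 0.0672) and 0 lower between the controls. With no filter, Tead2 in C3 was 0.013, Lats2 in C3-cJunKO against C3 0.0016 and no member was lower between the controls (0). C3-cJunKO against C3 called 250 genes with DESeq2, 134 with no filter and 139 in 1 fit of all libraries, against 77. An effect of age on 1 member of C3, Tead1, was found with a linear slope, with a spline of 2 degrees of freedom and with DESeq2. The cause of these differences was not tested.

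Without 1 library at a time, 626 of 700 member results stayed as they were. The counts of members ranged from 0 to 1 higher and 2 to 3 lower in C3, 1 higher and 5 to 7 lower in C22, 0 to 1 higher and 1 to 3 lower in the difference, 0 to 1 higher and 3 to 4 lower in C3-cJunKO against WT-C3, and 0 to 1 in either direction between the controls. In C3-cJunKO against C3 no member was called and 43 to 98 genes were. Uncalled members whose sign changed ranged in C3 from -0.12 to 0.082 (Tead2), -0.13 to 0.020 (Tead4) and -0.14 to 0.0049 (Lats1), and in the difference from -0.11 to 0.067 (Lats1). In C3-cJunKO against C3 they ranged from -0.024 to 0.18 (Tead1), -0.092 to 0.080 (Lats1), -0.049 to 0.012 (Lats2), -0.22 to 0.059 (Ccn1) and -0.45 to 0.037 (Ccn2), and against WT-C3 from -0.037 to 0.035 (Wwtr1) and -0.050 to 0.077 (Tead3). Between the controls they ranged from -0.018 to 0.033 (Wwtr1), -0.023 to 0.11 (Tead3), -0.13 to 0.014 (Tead4), -0.0050 to 0.096 (Lats1) and -0.0035 to 0.24 (Ccn1).

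Libraries of 1 age are different pools that share only the age in every comparison. In C3-cJunKO against C3, age as a replicate block called 273 genes in place of 77 and no member. There the lowest correlation of libraries of 1 age was 0.12, and 7 of 10 libraries correlated best with their own age. In the other comparisons the lowest was -0.22 for C3 and WT-C3, -0.15 for C22 and WT-C22, 0.02 for C3-cJunKO and WT-C3 and 0.05 for the controls. In these, 3, 1, 1 and 6 of 10 libraries correlated best with their own age. In these other comparisons the block gave 2 members higher in C3 (Tead1 added, adjusted p = 0.042), added Ccn2 (0.00209) and Tead2 (0.0424) in C22 and Ccn2 (0.0325) in C3-cJunKO against WT-C3, and between the controls gave 1 member higher (Ccn2, 0.00235) and 0 lower. It changed no other member call.

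The C3 library of 9 weeks, with 2140142 counts, limits the lowest members, of which Tead2 had 30 counts there. No call in C3 against WT-C3 changed without it.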
